A study of Mus musculus with 28 samples.

Results

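Transcript levels were examined for 7 genes that stand at the centre of the transformation used in these cells: the RAS genes Nras and Hras, the p53 family genes Trp53, Trp63 and Trp73, and the p53 regulators Mdm2 and Mdm4. They were taken by symbol from a count table of 24079 rows, in which each symbol had its own row, and were described over all 28 libraries. Of the 7 genes, 6 passed the filter on low counts, as did 15099 rows in all. Trp73 did not pass.

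RAS proteins are small GTPases that sit at the inner face of the plasma membrane, where fatty acyl and prenyl lipids hold them, and pass growth signals to the RAF, MEK and ERK kinases. p53, the product of Trp53, is a transcription factor that halts the cell cycle or starts cell death after damage or oncogene activity, and Trp63 and Trp73 encode its relatives. MDM2 is a ubiquitin ligase that marks p53 for destruction and is itself a transcriptional target of p53, and MDM4 is a related protein that blocks p53 activity. Mouse fibroblasts are commonly transformed by pairing an active RAS with a p53 mutant that disables the normal protein.

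All cells were mouse embryonic fibroblasts (MEFs) of strain C57BL/6x129Sv transformed with RAS and DNP53, a dominant-negative p53. The tagged clones 14 and 12 express cyclin D1 with a tag and were profiled after leptomycin B at 20 ng/mL, which blocks the nuclear exporter XPO1. The same clones were also profiled after siRNAs against the HA or FLAG tag, after 3 siRNAs against cyclin D1 that the labels name Qiagen, Nature and Life, after the control siRNA SCR, and without treatment. The untagged clones 25 and 18 received HA, FLAG or SCR siRNA. Clone 18 carrying FLAG-mCherry-HA, or mCherry alone, received HA siRNA (2 libraries for each construct) or FLAG siRNA (1 for each), and the labels add the word PURO to both constructs. Treatment lasted overnight, and each combination of tagged or untagged clone and treatment is 1 library. Each clone is a single line, so tests within clones measure the spread between libraries of these lines and not between independent transformations. The sources used here do not give which RAS was introduced, or the species and form of either transgene. Counts per gene therefore cannot tell a transcript of the cell's own gene from one of a transgene that maps to the same gene.

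Whether reads of one gene can be mistaken for another bears on every result, so all 100-base stretches (the read length) of the GENCODE M21 transcripts of each member were compared with those of other genes. No 100-base stretch of an annotated Nras or Hras transcript occurred in a transcript of another gene. For Trp53, 7 of 4407 such stretches also occurred in the pseudogene Trp53-ps, and for Mdm4, 293 of 15142 (1.94%) occurred in Mdm4-ps, so a small part of the Mdm4 count could belong to its pseudogene. In GRCm38.p6, the assembly of mm10, Nras (gene ID 18176) lies on chromosome 3 from 103058285 to 103067914 and Hras (15461) on chromosome 7 from 141189934 to 141194019. Trp53 (22059) lies on chromosome 11 from 69580348 to 69591873, Mdm2 (17246) on chromosome 10 from 117688875 to 117710758, and Mdm4 (17248) on chromosome 1 from 132986105 to 133030587. None of these 5 genes shares exon bases with another annotated gene.

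Library totals ran between 26558256 and 81512769 counts. In 4 libraries the ribosomal precursor Rn45s took over 2% of counts (HA siRNA clone 12, Nature and Life siRNA clone 14, and mCherry HA REP2), and calls of members that change without these libraries are given beside the result. Levels are given as CPM, counts scaled to a common library size. All 10 fibroblast markers averaged over 1 CPM in tagged clones, although single libraries fell to 0.292 CPM for Col1a1, 0.201 CPM for Col1a2 and 0 for Thy1 and Dcn. In tagged clones 0 of 4 endothelial, 0 of 3 muscle, 1 of 4 haematopoietic and 1 of 4 neural markers averaged over 1 CPM. In untagged clones and mCherry lines 1 of 3 muscle markers did. Of 8 epithelial markers 4 averaged over 1 CPM, led by the keratins Krt19 (median 774 CPM) and Krt18 (749 CPM). The summed epithelial level ran between 121.5 and 3696 CPM in tagged clones, against 583 to 2041 CPM in untagged clones, and its part in the differences between clones was not tested. Ccnd1, the target of the cyclin D1 siRNAs, fell in tagged clones with the tag siRNAs (log2 fold change -2.70 ± 0.19, SE) and with the cyclin D1 siRNAs (-3.51 ± 0.17). In untagged clones its change with the tag siRNAs was -0.15 ± 0.20. Fewer cells of a kind and less RNA per cell cannot be told apart in such bulk libraries.

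Hras was by far the most abundant of the 7 transcripts per unit of length. Averaged over the 28 libraries and divided by exon length, it reached 402 CPM per kb, a level above 99.49% of the 22724 rows with a length. Trp53 followed at 49.2 CPM per kb, then Nras at 39.8, Mdm2 at 16.2 and Mdm4 at 2.31 CPM per kb. Within single libraries, the level of Hras per kb was between 4.93 and 19.6 times that of Nras (median 10.2, n = 28). Each of the 28 libraries therefore held more Hras than Nras transcript per length. Trp63 was close to absent at 0.0176 CPM per kb.

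**Figure D1:**
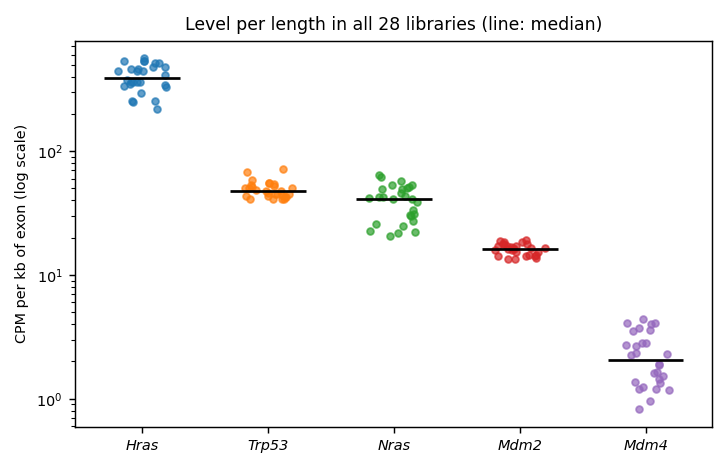
Level per length of 5 members in each of the 28 libraries, as CPM per kb of exon on a log scale, with 1 point per library and a line at the median. Hras lies above every other gene in every library, and the points of Mdm4 spread the most.

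Hras also differed between lines. It averaged 1868 ± 167 CPM in clone 14 and 1635 ± 236 CPM in clone 12 (SD, n = 8 each). The untagged clones were lower, with 901 ± 69.3 CPM in clone 25 and 1312 ± 54.5 CPM in clone 18 (SD, n = 3 each). Clone 18 with FLAG-mCherry-HA had 1293 ± 65.99 CPM and clone 18 with mCherry 1152 ± 222 CPM (SD, n = 3 each), where the spread in the mCherry line came from values of 956, 1106 and 1392 CPM. Among libraries with HA, FLAG or SCR siRNA, the 6 of tagged clones held between 1534 and 1988 CPM and the 6 of untagged clones between 821 and 1345 CPM. These ranges did not overlap; 3.64% of all genes tested lie wholly higher in the tagged libraries in this way and 5.09% wholly lower. Over all 16 tagged libraries the range was 1273 to 2098 CPM, which overlapped the 821 to 1392 CPM of the 12 others, where 0.682% of genes lie wholly higher and 2.36% wholly lower. These sets were chosen after the values were seen. In the test that takes clones as the replicates, the 4 SCR libraries alone, Hras was 0.66 ± 0.25 higher on the log2 scale in tagged clones (SE, 95% interval -0.43 to 1.75) and not past the threshold (edgeR adjusted p = 1.00). Nor were any of the 13233 genes of that test called by edgeR (0% called, 442 at an unadjusted p under 0.05), and 177 were called by DESeq2, with 0 members among them. The between-clone difference in Hras was thus not detectable with 2 clones a side.

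Between paired clones, 8 matched treatments for the tagged and 3 for the untagged pair, calls were common. Clone 14 against clone 12 called 2 of the 6 members beside 62.6% of all genes tested. Hras was higher in clone 14 (log2 fold change 0.20 ± 0.07, edgeR adjusted p = 0.0205), a call lost without Qiagen clone 12 (0.17), Nature clone 12 (0.17), Qiagen clone 14 (0.17) or the libraries rich in Rn45s (0.18), where adjusted p lay between 0.0507 and 0.0670; over all its alternatives it ran between 0.00735 and 0.0670. The other called member was Trp63, which passed the filter on low counts only through clone 12, where it is high, so nothing is read from its call; the stricter filter drops it and leaves Hras as the 1 member called. Clone 25 against clone 18 also called 2 members, beside 47.6% of all genes. There Hras was lower in clone 25 (-0.54 ± 0.12, edgeR adjusted p = 9.7e-04) and Nras higher (0.31 ± 0.10, edgeR adjusted p = 0.0134). The call for Nras was lost without either clone's SCR or FLAG library, with adjusted p between 0.0596 and 0.0624 and a fold change of 0.31 each time; its alternatives ran between 5.2e-04 and 0.0624. Mdm4 was at 0.82 ± 0.35 there and not past the threshold (edgeR adjusted p = 0.0634), but it was called in 4 of 12 alternatives, among them the one without the libraries rich in Rn45s (0.87, adjusted p = 0.0270), where Trp63 with its few counts was called too (2.71, adjusted p = 0.0434). None of those libraries is among the 6 compared, and they enter only through the shared fit. Hras and Nras thus moved in opposite directions between these clones. Neither comparison says anything of other clones, since each side is 1 line.

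**Figure D2:**
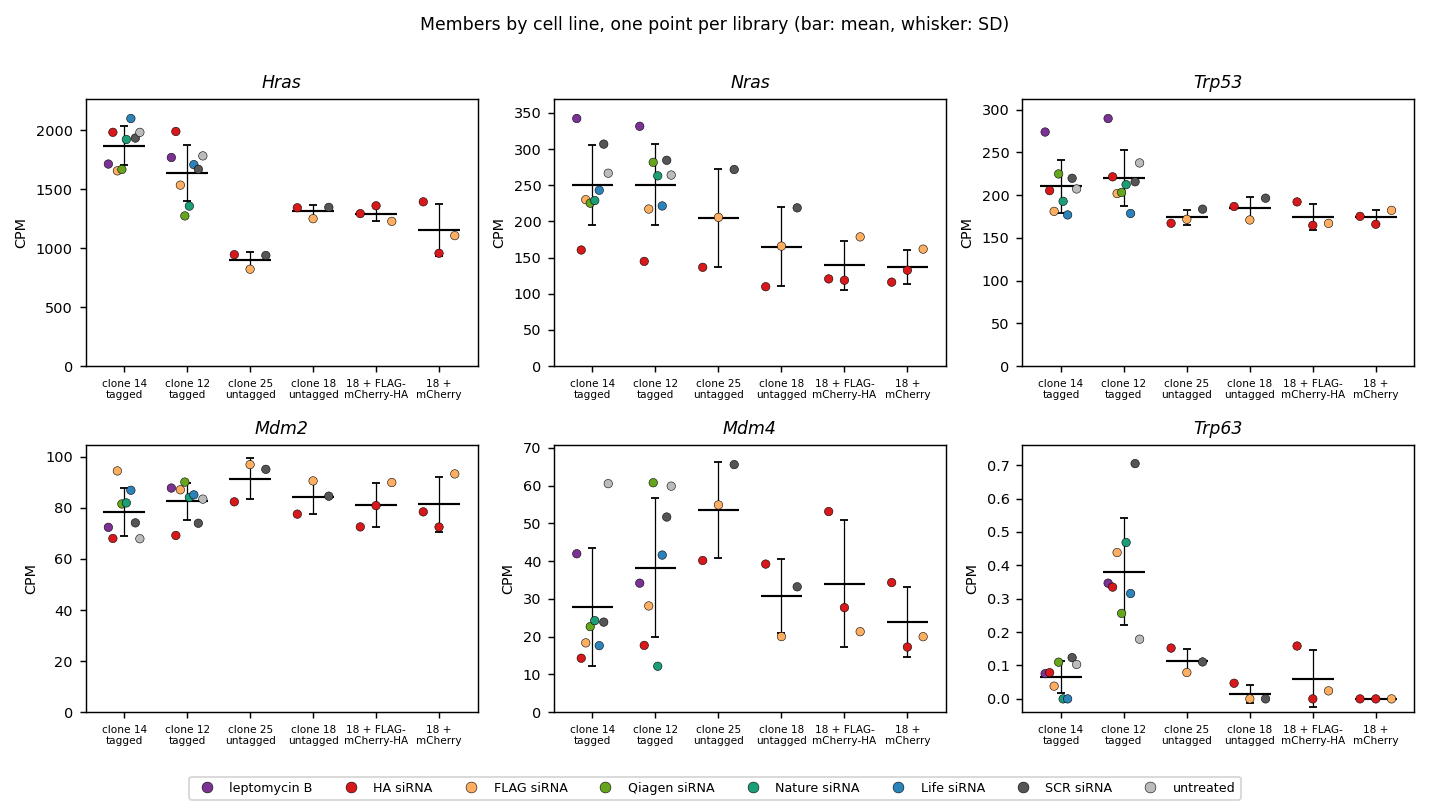
CPM of 6 members by cell line, with 1 point per library coloured by treatment, a bar at the mean and a whisker of 1 SD. Hras steps down between tagged and untagged clones, the HA siRNA points of Nras lie at the bottom of each line, and Trp63 is at 0.179 CPM or more throughout clone 12.

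Trp53 and Mdm2 varied less. Trp53 ran between 165 and 290 CPM over the 28 libraries, with a coefficient of variation of 15.6%, and averaged 210 ± 30.8 CPM in clone 14, 220 ± 32.9 CPM in clone 12, 174 ± 8.52 CPM in clone 25 and 185 ± 12.9 CPM in clone 18 (SD, n = 8, 8, 3 and 3). In the mCherry lines the level of Trp53 was 175 ± 15.2 CPM with FLAG-mCherry-HA and 175 ± 8.17 CPM with mCherry (SD, n = 3 each). Mdm2 ran between 67.9 and 96.9 CPM, a coefficient of variation of 10.4%, and its line means lay between 78.4 CPM in clone 14 and 91.4 CPM in clone 25. Over all 28 libraries Mdm4 had the highest coefficient of variation of the 5 well-expressed members, 48.0% against 32.1% for Nras, and ran between 12.2 and 65.6 CPM. Within lines its coefficient of variation was 55.8% in clone 14, 48.3% in clone 12, 23.8% in clone 25 and 31.9% in clone 18, where Nras had 22.1%, 22.4%, 33.01% and 33.07%, so in both untagged clones Nras varied more. Treatments of the same kind in different clones could disagree widely: Mdm4 stood at 22.7 CPM in clone 14 and 60.8 CPM in clone 12 with Qiagen siRNA, and at 24.3 and 12.2 CPM with Nature siRNA. When the 15 groups of libraries are put in order of level, 13 of 14 neighbouring groups overlap for Mdm4, 13 for Mdm2, 13 for Hras and 12 for Trp53, against 8 for Nras. Ccnd1 also had 8. These overlaps were not counted over all genes, so whether any of them is unusual was not tested.

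The other p53 relatives were barely detected. Trp63 gave 209 counts in all, 161 of them in the 8 libraries of clone 12, where it ran between 0.179 and 0.705 CPM. In clone 14 it gave 25 counts and between 0 and 0.124 CPM. Clones 14 and 12 did not overlap in these values, and no library outside clone 12 held more than 7 counts. Of all genes tested, 10.5% lie wholly lower in clone 14 and 8.51% wholly higher. Trp63 passed the filter on low counts only through clone 12, where it is high, so nothing is read from its lack of overlap. Clone 25 had at most 0.152 CPM, clone 18 and its FLAG-mCherry-HA line at most 0.158 CPM, and the mCherry line gave 0 counts. Trp73 gave 1 count in the 28 libraries, in clone 14 with leptomycin B. A count of 0 allows up to 3 counts, which is between 0.0358 and 0.114 CPM in the libraries with none, so levels under this limit were not detectable; the limit covers counting error only. No library held either transcript near the level of Trp53.

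Nras was the member that fell with HA siRNA, in clones with and without a tag on cyclin D1. With HA siRNA it stood at 161 CPM in clone 14, 145 CPM in clone 12, 137 CPM in clone 25 and 110 CPM in clone 18. FLAG siRNA gave 230, 217, 206 and 166 CPM in the same order of clones, and SCR gave 307, 284, 272 and 219 CPM. The HA libraries held 50.2% to 52.3% of the SCR level of their own clone, and the FLAG libraries 75.0% to 76.3%, in 4 of 4 clones each.

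These differences passed the test for HA siRNA in both kinds of clone. Against SCR, Nras was lower with HA siRNA in tagged clones (log2 fold change -0.95 ± 0.12, edgeR adjusted p = 1.3e-04), and it was 1 of 6 members called, beside 4.11% of all genes. It was lower with HA siRNA in untagged clones as well (-0.99 ± 0.12, edgeR adjusted p = 1.0e-04), again as 1 of 6 members, beside 2.16% of all genes. Without the clone as a block the fold changes were the same and the calls were lost (adjusted p = 0.0865 in tagged and 0.112 in untagged clones), the highest values over their alternatives; the lowest were 4.9e-26 and 3.7e-15. With FLAG siRNA the change was -0.40 ± 0.12 in tagged clones (edgeR adjusted p = 0.0979) and -0.40 ± 0.12 in untagged clones (adjusted p = 0.112). Neither passed, and 0 of 6 members were called with FLAG siRNA in either kind of clone, beside 2.17% and 2.02% of all genes (2 and 1 members at an unadjusted p under 0.05, and 1 each by DESeq2). DESeq2 called Nras in both (adjusted p = 0.0209 in tagged and 0.0164 in untagged clones), as did the fit of only the libraries compared (0.00216 and 4.4e-04), over alternatives that reached 1.00 in both.

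Averaged over both tag siRNAs, Nras was lower than with SCR in tagged clones (-0.68 ± 0.10, edgeR adjusted p = 6.4e-04, 1 of 6 members and 3.86% of all genes called) and in untagged clones (-0.70 ± 0.10, adjusted p = 4.6e-04, 1 of 6 members and 2.68% of all genes). The untagged call was lost without SCR clone 18 (-0.70, adjusted p = 0.0808, over a range of 7.4e-10 to 0.181 for its alternatives). The difference between these responses, tagged minus untagged, was 0.02 ± 0.15 (95% interval -0.30 to 0.34, adjusted p = 1.00), with 0 of 6 members and 0.00662% of all genes called, which is Ccnd1 alone. No member had an unadjusted p under 0.05 in this difference. For comparison, the difference for Ccnd1 was -2.55 ± 0.28 (edgeR adjusted p = 8.0e-04).

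The lines with mCherry constructs extend this comparison to cells of clone 18 with another tagged protein. Nras stood at 121 and 119 CPM with HA siRNA and 179 CPM with FLAG siRNA in cells with FLAG-mCherry-HA, against 116 and 133 CPM with HA siRNA and 162 CPM with FLAG siRNA in cells with mCherry. The construct itself made a difference of 0.01 ± 0.10 (95% interval -0.20 to 0.23, edgeR adjusted p = 0.975), and 0 of 6 members and 0% of all genes were called (1 member and 1390 genes at an unadjusted p under 0.05; 0 members and 15 genes by DESeq2).

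Because of these values, HA siRNA was set against FLAG siRNA over the 6 matched pairs, a comparison chosen after the values were seen. Nras with HA siRNA was at 66.2% to 82.0% of its level with FLAG siRNA and lower in 6 of 6 pairs (log2 fold change -0.53 ± 0.07, edgeR adjusted p = 7.0e-05). Mdm2 was the other member called, beside 8.53% of all genes, at 72.0% to 89.95% of the FLAG level and lower in 6 of 6 pairs (-0.30 ± 0.07, edgeR adjusted p = 0.00810). Without the block, with only the libraries compared, or without the libraries rich in Rn45s, the fold change of Mdm2 was -0.30, -0.29 or -0.26 and its call was lost, with adjusted p of 0.0655, 0.0587 or 0.103; over all its alternatives it ran between 1.3e-04 and 0.103. The 8 HA libraries held between 110 and 161 CPM of Nras and the other 20 between 162 and 342 CPM. These ranges do not overlap, although they lie close together, and 27 genes (0.179%) lie wholly lower in the HA libraries in this way, while 0 lie wholly higher. This too was looked at after the values were seen.

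**Figure D3:**
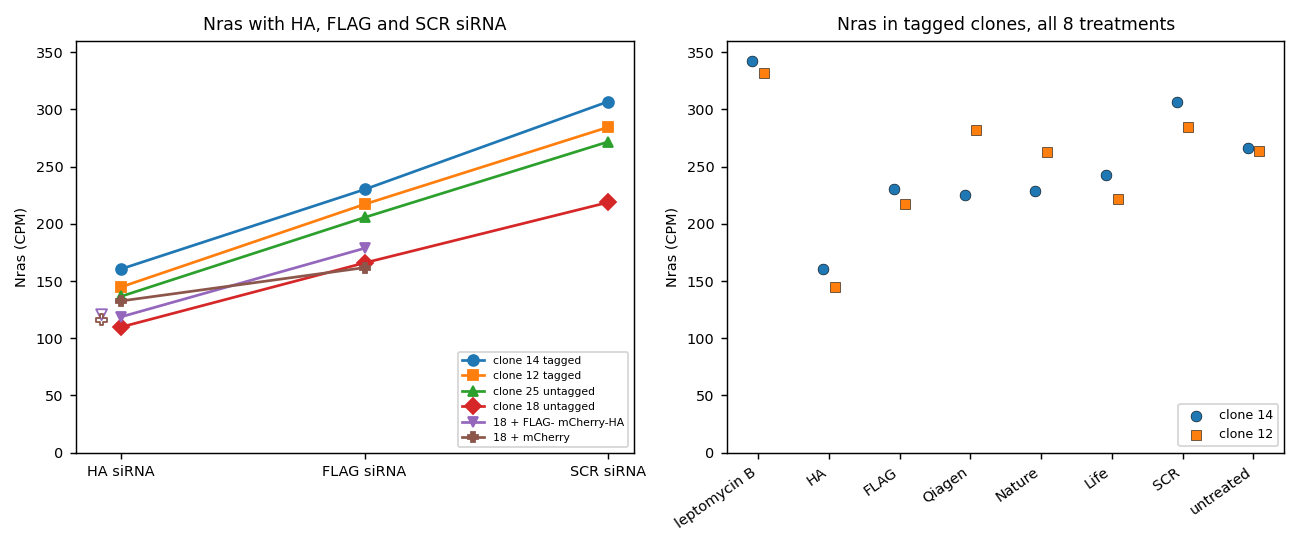
Nras in CPM. Left, by siRNA, with a line joining the libraries of 1 cell line (open symbols, the REP1 libraries with HA siRNA); right, the tagged clones under all 8 treatments. The HA siRNA points lie at 110 to 161 CPM, and every line joins a lower HA to a higher FLAG value.

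With the siRNAs against cyclin D1 itself no change of Nras passed the test. It stood at 225 CPM in clone 14 and 282 CPM in clone 12 with Qiagen siRNA, at 229 and 263 CPM with Nature siRNA, and at 243 and 221 CPM with Life siRNA. All 6 libraries were below the SCR library of their clone, by little for Qiagen siRNA in clone 12, which held 99.0% of it. The pooled change was -0.28 ± 0.10 (edgeR adjusted p = 0.0991), and 0 of 6 members were called, beside 5.40% of all genes (1 member at an unadjusted p under 0.05, and 1 by DESeq2). Leaving out Qiagen clone 12 gave -0.34 with an adjusted p of 0.0321, in a range of 0.0321 to 0.973 over the alternatives. Single siRNAs gave -0.22 ± 0.12 for Qiagen, -0.27 ± 0.12 for Nature and -0.35 ± 0.12 for Life, and 0 members passed with any of them, beside 5.33%, 8.56% and 8.29% of all genes. At an unadjusted p under 0.05 there were 0, 2 and 2 members, and DESeq2 called 0, 0 and 2. Nras with Life siRNA was called by DESeq2 (adjusted p = 0.0339) and with only the libraries compared (0.00243), in a range up to 0.887.

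Set against untreated cells, which avoids the SCR libraries, the 10 libraries of tagged clones with any of the 5 targeting siRNAs had between 145 and 282 CPM of Nras (median 227), against 264 and 267 CPM in untreated cells. Untreated cells received no siRNA, and the labels do not give a shared day for them and the siRNA libraries. In every comparison of siRNA libraries with untreated cells, the siRNA target, siRNA delivery and a batch therefore cannot be told apart. Nras (-0.28 ± 0.09, edgeR adjusted p = 0.0249) and Mdm4 (-1.35 ± 0.30, edgeR adjusted p = 0.00334) were lower, 2 of 6 members called beside 30.5% of all genes. Mdm4 lay between 12.2 and 60.8 CPM in the siRNA libraries (median 20.5), against 59.9 and 60.5 CPM in untreated cells. Of the 10 siRNA libraries, 9 lay below both untreated ones, and the exception was Qiagen clone 12. Both calls rest on the untreated library of clone 14: without it Mdm4 was at -1.08 with an adjusted p of 0.145 and Nras at -0.28 with 0.213. Over all alternatives, adjusted p ran between 3.3e-04 and 0.145 for Mdm4 and between 0.00691 and 0.390 for Nras, whose call was also lost without untreated clone 12 (0.131). SCR siRNA shared part of the difference in Mdm4, at 23.9 CPM in clone 14 and 51.7 CPM in clone 12 (-0.75 ± 0.42 against untreated, edgeR adjusted p = 0.279). No member was called for SCR against untreated (0 of 6, and 0 at an unadjusted p under 0.05 or by DESeq2, beside 5.29% of all genes), and the change of Nras was 0.16 ± 0.12.

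Leptomycin B was the treatment under which Trp53 stood highest. Its level was 274 CPM in clone 14 and 290 CPM in clone 12 with the drug, against 207 and 238 CPM in untreated cells. Both drug libraries lay above all 26 others, which held between 165 and 238 CPM, as they did for 2.56% of all genes, while 2.38% lie wholly lower with the drug in this way. The change was 0.34 ± 0.10 on the log2 scale (95% interval 0.11 to 0.57, edgeR adjusted p = 0.0449), and Trp53 was 1 of 6 members called, beside 9.99% of all genes. That call is narrow. Leaving out leptomycin B clone 14 gave 0.35 (adjusted p = 0.116), leptomycin B clone 12 0.31 (0.217), untreated clone 14 0.26 (0.331) and untreated clone 12 0.42 (0.0981). Without the block it was 0.34 (0.327), with no filter on low counts 0.34 (0.0750) and without the libraries rich in Rn45s 0.33 (0.0847). The range over all alternatives was 0.00230 to 0.331. The cells also carry DNP53, and reads of the cell's own Trp53 and of a transgene that maps to it cannot be told apart.

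For Nras the estimate with the drug was of the same size but short of the threshold. It held 342 CPM in clone 14 and 331 CPM in clone 12 with leptomycin B, against 267 and 264 CPM in untreated cells. Both drug libraries again lay above all 26 others (110 to 307 CPM), as they did for 2.56% of all genes. Of those 26, 12 are of lines that did not receive the drug, and the highest, at 307 CPM, was of a tagged clone. The change of 0.34 ± 0.12 did not pass (edgeR adjusted p = 0.0752), although it did with DESeq2 (adjusted p = 0.0215) and with only the libraries compared (0.00217), in a range up to 0.837. Hras was at 1713 CPM in clone 14 and 1768 CPM in clone 12, against 1981 and 1782 CPM in untreated cells (-0.11 ± 0.14, 95% interval -0.42 to 0.21).

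No change of the p53 inhibitors passed with the drug. Mdm2 stood at 72.4 CPM in clone 14 and 87.7 CPM in clone 12 with leptomycin B, against 67.9 and 83.4 CPM in untreated cells, a change of 0.08 ± 0.12 (95% interval -0.17 to 0.33, edgeR adjusted p = 0.725). Mdm4 stood at 42.0 and 34.2 CPM, against 60.5 and 59.9 CPM in untreated cells (-0.64 ± 0.42, adjusted p = 0.382), lower in both clones. With only the libraries compared, Mdm4 was at -0.67 and called (edgeR adjusted p = 4.9e-05), in a range up to 1.00 over its alternatives. That fit estimates the spread without the siRNA and mCherry libraries, from 2 libraries in each arm, so its small adjusted p carries little weight. Xpo1, which encodes the target of the drug, was higher (0.87 ± 0.15, edgeR adjusted p = 0.00135), at 1193 CPM in clone 14 and 1238 CPM in clone 12, against 635 and 701 CPM in untreated cells.

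**Figure D4:**
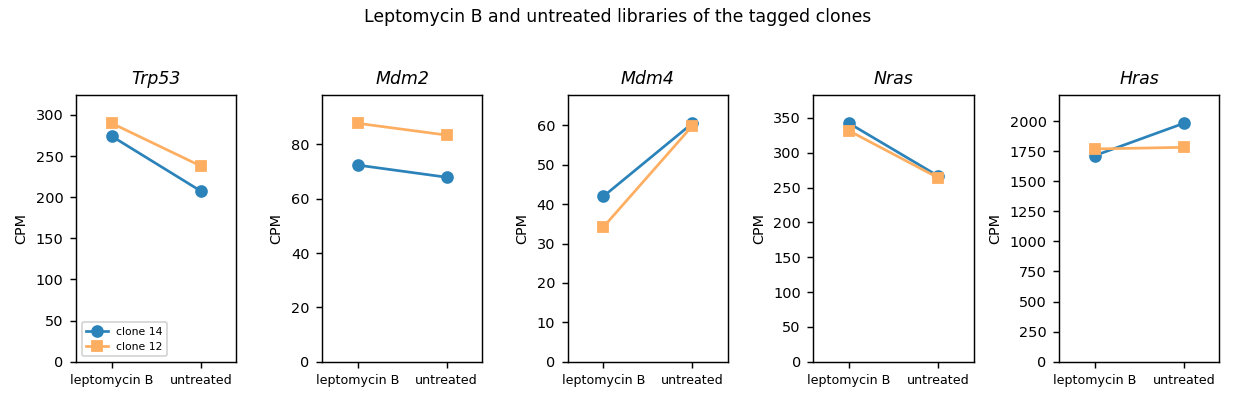
CPM of 5 members with leptomycin B and in untreated cells, with a line for each tagged clone. Trp53 and Nras are higher with leptomycin B in both clones, and Mdm2 differs by less than 5 CPM within a clone.

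Against SCR, no siRNA gave a call for Trp53, Mdm2, Mdm4 or Hras in the fit of all libraries, and some alternatives did for Trp53, Mdm2 and Mdm4. Trp53 in tagged clones stood at 205 and 222 CPM with HA siRNA in clones 14 and 12, 181 and 202 CPM with FLAG siRNA, and 220 and 216 CPM with SCR. Its estimate farthest from 0 against SCR was with Life siRNA, at 177 CPM in clone 14 and 179 CPM in clone 12 (-0.29 ± 0.10, edgeR adjusted p = 0.0945). DESeq2 called that difference (adjusted p = 0.0328), as did the fit of only those libraries (0.0167), in a range up to 0.492. For Mdm2 with FLAG siRNA in tagged clones the estimate was 0.29 ± 0.12 and did not pass (edgeR adjusted p = 0.249), at 94.4 and 87.0 CPM against 74.1 and 74.0 CPM with SCR; with only the libraries compared it was 0.30 and called (adjusted p = 0.0454, in a range up to 1.00). It was at 102% to 127% of SCR in 4 of 4 clones with FLAG siRNA and at 86.6% to 93.5% in 4 of 4 clones with HA siRNA. Mdm4 with HA siRNA was at 14.3 CPM in clone 14 and 17.7 CPM in clone 12, against 23.9 and 51.7 CPM with SCR (-1.18 ± 0.43, adjusted p = 0.128). In untagged clones it was at 40.2 CPM in clone 25 and 39.2 CPM in clone 18, against 65.6 and 33.2 CPM with SCR, lower in one clone and higher in the other. The fit of only the libraries compared holds 2 libraries in each arm for a single siRNA. It takes the spread from so few libraries that its small adjusted p carry little weight. With only the libraries compared, Mdm4 was called in tagged clones with HA siRNA (-1.16, adjusted p = 1.8e-13), FLAG siRNA (-0.64, 0.00775), both averaged (-0.91, 0.00174) and Life siRNA (-0.37, 0.0416), and in untagged clones with FLAG siRNA (-0.47, 1.7e-04). Its adjusted p reached at least 0.8895 over the alternatives of each of these comparisons. With Nature siRNA it was at -0.93 ± 0.44 (edgeR adjusted p = 0.183), and called without the libraries rich in Rn45s (-1.86, adjusted p = 0.0283) or without Nature clone 14 alone (-1.89, 0.0155), both of which leave clone 12 as the single Nature library, assumed to vary like the other groups. The estimate for Hras with the tag siRNAs was -0.01 ± 0.12 in tagged clones (95% interval -0.28 to 0.26) and -0.07 ± 0.12 in untagged clones (-0.34 to 0.20).

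**Figure D5:**
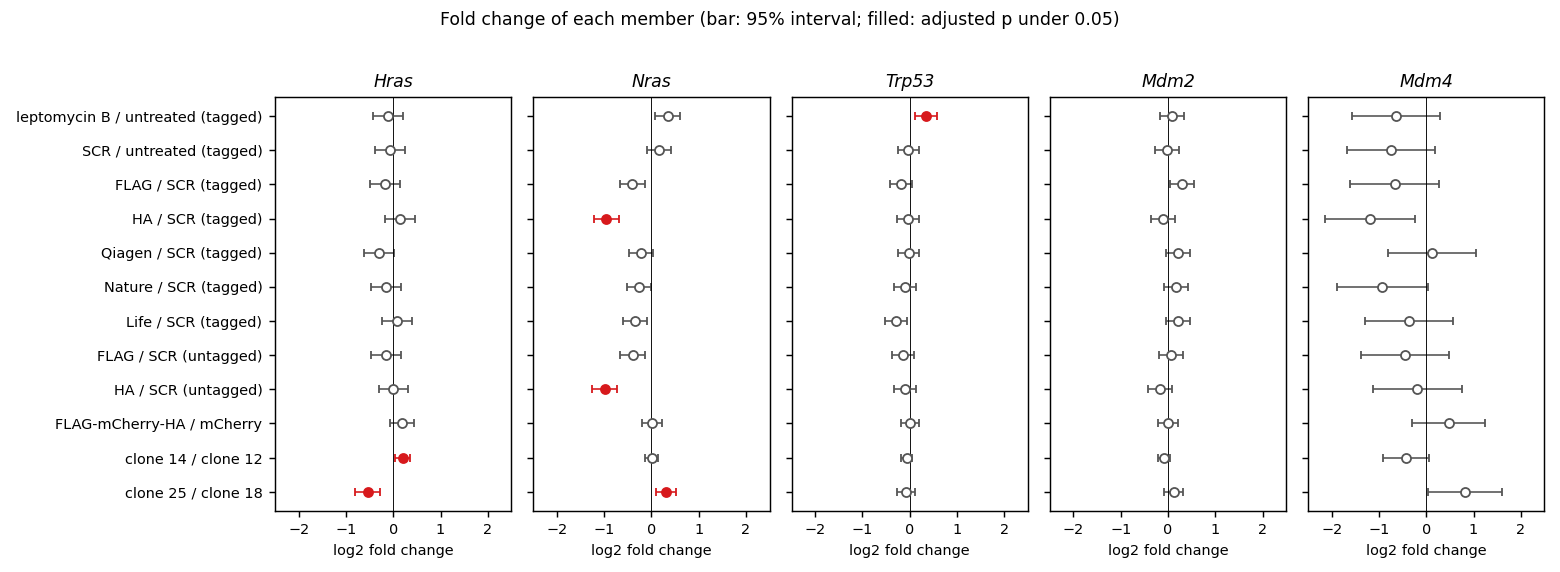
Log2 fold change of 5 members in 12 comparisons, with the 95% interval as a bar and a filled red point where the edgeR adjusted p is under 0.05. The filled points are Nras with HA siRNA in both kinds of clone, Trp53 with leptomycin B, Hras between both clone pairs and Nras in clone 25 against clone 18, and the intervals of Mdm4 are the widest.

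The wider RAS pathway was read from a list of 32 genes, 31 of them tested. With the tag siRNAs, 2 of 31 were higher than with SCR in tagged clones and the same 2 genes in untagged clones, with 0 lower in either, beside 3.86% and 2.68% of all genes called. They were Fnta, the alpha subunit of the farnesyltransferase that attaches the prenyl lipid to RAS (0.83 ± 0.14 in tagged and 0.55 ± 0.14 in untagged clones, edgeR adjusted p = 0.00177 and 0.0359), and Golga7, the partner of the enzyme that adds palmitate to HRAS and NRAS (0.75 ± 0.13 and 0.60 ± 0.13, adjusted p = 0.00283 and 0.0165). Both were also higher with the cyclin D1 siRNAs (0.73 ± 0.13 for Fnta and 0.75 ± 0.13 for Golga7, edgeR adjusted p = 0.00296 and 0.00178), and these comparisons in tagged clones share their SCR libraries. Against untreated cells, Fnta was 0.47 ± 0.12 and Golga7 0.45 ± 0.12 higher with the targeting siRNAs (edgeR adjusted p = 0.00943 and 0.00935). There 5 of 31 genes were higher and 12 lower, beside 30.5% of all genes called, led by Sos1, an exchange factor that loads RAS with GTP (-0.63 ± 0.12, adjusted p = 0.00146). The list's median in that comparison was -0.30, against 0.00 over all genes. With leptomycin B, 1 of 31 was higher, the adaptor Shc1 (0.42 ± 0.12, adjusted p = 0.0405), and 3 were lower, among them Rasal2 (-1.21 ± 0.29, adjusted p = 0.0132) and Rasa2 (-0.57 ± 0.16, adjusted p = 0.0321), both of which encode GTPase-activating proteins that switch RAS off; 9.99% of all genes were called with the drug. The median of the list was -0.17, against 0.03 over all genes. Shc1, Rasal2 and Rasa2 were also called with the targeting siRNAs, a comparison that shares its untreated libraries with that of the drug.

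Of 26 regulators of p53, all tested, 2 were lower with the tag siRNAs than with SCR in tagged clones and 1 in untagged clones, and 0 were higher, beside the same 3.86% and 2.68% of all genes. Setd7, a lysine methyltransferase with p53 among its substrates, was lower in both kinds of clone (-1.02 ± 0.18 in tagged and -1.05 ± 0.18 in untagged clones, edgeR adjusted p = 0.00354 and 0.00287). The checkpoint kinase gene Chek1 was lower in tagged clones (-0.68 ± 0.13, edgeR adjusted p = 0.00446) and also with the cyclin D1 siRNAs (-0.77 ± 0.12, adjusted p = 8.9e-04). With leptomycin B, 2 of 26 were higher and 3 lower, beside 9.99% of all genes called, with a median of -0.12 against 0.03 over all genes. The lower ones were Ppp1r13b, which encodes the p53 cofactor ASPP1 (-1.35 ± 0.23, edgeR adjusted p = 9.5e-04), Usp7, the deubiquitinase of MDM2 and p53 (-0.62 ± 0.13, adjusted p = 0.00414), and the kinase gene Atr (-0.71 ± 0.18, adjusted p = 0.0191). Chek2, another checkpoint kinase gene, was higher (0.41 ± 0.13, adjusted p = 0.0469), as was Trp53inp1. Against untreated cells, the targeting siRNAs had 3 of 26 higher and 13 lower, beside 30.5% of all genes called, with a median of -0.27 against 0.00 over all genes. Usp7 and Atr were called there too. The drug and the targeting siRNAs were set against the same untreated libraries, so these calls are not particular to the drug.

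Of 18 known p53 targets tested, 1 was higher and 1 lower with leptomycin B, a share near the 9.99% of all genes called, with a median of 0.11 against 0.03 over all genes; the lower one was Aen, an apoptosis-enhancing nuclease (-1.13 ± 0.13, edgeR adjusted p = 5.0e-05), and the higher one Trp53inp1 (1.37 ± 0.43, adjusted p = 0.0493). Cdkn1a, which encodes the cell cycle inhibitor p21, was at 33.2 and 25.5 CPM with the drug in clones 14 and 12, against 38.7 and 29.6 CPM untreated (-0.22 ± 0.15, adjusted p = 0.400), and for Ccng1, which encodes cyclin G1, the estimate was 0.23 ± 0.14 (adjusted p = 0.324). Cdkn1a was higher with SCR siRNA than in untreated cells (1.02 ± 0.15, edgeR adjusted p = 0.00123), at 82.9 and 57.3 CPM, and lower with HA siRNA than with SCR in tagged (-1.76 ± 0.15, adjusted p = 6.2e-06) and untagged clones (-1.86 ± 0.15, adjusted p = 4.3e-06). Each of the other siRNAs also had less of it than SCR: FLAG siRNA in tagged (-1.30 ± 0.15, adjusted p = 1.1e-04) and untagged clones (-1.22 ± 0.15, 1.9e-04), and Qiagen (-1.09 ± 0.15, 1.8e-04), Nature (-0.65 ± 0.15, 0.00958) and Life siRNA (-0.84 ± 0.15, 0.00158), comparisons that share the SCR libraries of their clones. Against untreated cells the targeting siRNAs left Cdkn1a at -0.11 ± 0.11 (adjusted p = 0.516). The other targets did not fall with it as a set. Of the 18 tested, the tag siRNAs had 2 higher and 1 lower than SCR in tagged clones, beside 3.86% of all genes called. In untagged clones 1 was higher and 1 lower, beside 2.68%. The cyclin D1 siRNAs had 0 higher and 1 lower, beside 5.40%. Cdkn1a was the lower one each time. The list's medians were 0.23, 0.11 and -0.13, against 0.03, -0.01 and 0.02 over all genes.

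The genes most like each member were found by Pearson correlation of log2 CPM over the 28 libraries after the mean of each line was removed, among 11771 genes with at least 1 CPM. These are descriptions without a test, and the points share lines and treatments. Nras was closest to Mknk2 (r = 0.92), Mtfr1 (0.90) and Cdca4 (0.89). Trp53 was closest to Tex261 (0.90), Nde1 (0.89) and Hspa14 (0.87). Mdm4 had the closest neighbours of all, Aak1 (0.97), Ncor1 (0.97) and Xpo4 (0.97), while Mdm2 reached 0.81 with Tnfrsf11a, 0.79 with Sgpp1 and 0.78 with Igfbp5. Hras reached 0.75 with Taf6, 0.70 with Safb and 0.68 with Uba1, and for Trp63, with counts near 0, the highest was 0.67 with Pkia. Among the members themselves the values lay between -0.53 for Trp63 with Mdm2 and 0.43 for Mdm2 with Nras, and Hras and Nras stood at -0.31.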

How the data were processed

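Poly(A) RNA of 28 libraries was sequenced as stranded single reads of 100 bases, per the labels' protocols. The table the authors deposited holds raw counts, with 24079 gene rows and 1 column per library, all used; 22 rows carry a symbol without a gene ID and were kept. The submitters' processing notes name CASAVA (1.8.2), FastQC, TopHat2 (2.0.13), Bowtie2 (2.2.3), HTSeq (0.6.1p1) and mm10. Neither the annotation nor the strand setting is given there. Titles carry an n of 3 or 4 without saying what it counts. Each library was taken as 1 sample, and since no label tells of separate cultures, p-values measure the spread between libraries, which may be technical. Among 378 pairs of libraries, none agreed within sampling noise (chi-square over its degrees of freedom at least 13.8).

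The main test was edgeR's robust quasi-likelihood test (edgeR 4.0.16, R 4.3.3) after filterByExpr (minimum count 10) and TMM scaling. All libraries, in 15 groups, entered a single model with 17 coefficients and 11 residual degrees of freedom, in which the mCherry lines have 1 construct effect for both siRNAs. A call is a Benjamini-Hochberg adjusted p under 0.05 over all genes tested. The block was the clone, which is the same cell line in both arms, or the matched mCherry pair. Libraries of a clone deviated together, with correlations of at least 0.834 in 56 tagged pairs, 0.862 in 6 untagged pairs and 0.251 in 3 mCherry pairs. Deviations of tagged or untagged clones were taken from the mean of both clones under a treatment. They mirror each other, so each of those correlations is counted in both clones. Tagged against untagged clones used only the SCR libraries, without a block. CPM use TMM-scaled totals, and 95% intervals use the residual degrees of freedom. Lengths are GENCODE M21 union exons. The procedure was tested on simulated data. A comparison of coding sequences is not reported here.

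The members, gene lists, tests and alternatives were chosen with earlier results of these data known. All members are named, with up to 4 genes of smallest p from each list; Trp53inp1 and Aen, and Fnta and Golga7 against untreated cells, were named after their values were seen. Likeness used log2 CPM with a prior count of 2. Alternatives were RLE scaling, no filter, a stricter filter (minimum count 50), no block, only the libraries compared, DESeq2 1.42.0, each library left out and, added after seeing the data, leaving out the libraries with over 2% Rn45s. With only the libraries compared, a single siRNA or the drug is tested on 2 libraries in each arm, so the spread rests on few libraries.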

Additional observations from a re-analysis of the deposited data

Results flagged for a closer look

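Trp73 in the tagged clone 14 was at 0.0151 CPM with leptomycin B and at 0 in the other 7 libraries of that clone, so this library stood apart from its line. The value is a single count, under the limit of 3 counts, and a screen of this kind marks about 1 in 20 groups by chance. Any lone count in a line otherwise at 0 stands apart in this way, so nothing is read from it.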

How the results depend on the processing

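No called value changed sign under any alternative; estimates past the threshold under neither setting were counted as unchanged whatever their sign. Single values gained a call in 28 cases and lost one in 29. The number of members called moved as follows, with the count as reported first. Without the replicate block it was 1 to 0 for leptomycin B, for the tag siRNAs in tagged and in untagged clones and for HA siRNA in both, 2 to 0 for targeting siRNAs against untreated and 2 to 1 for HA against FLAG siRNA; all genes called fell to 74 of 1508 for leptomycin B and 25 of 620 for HA siRNA in tagged clones. With only the libraries compared, it was 1 to 3 for leptomycin B, 1 to 2 for the tag siRNAs and for HA siRNA in tagged clones, 2 to 1 for targeting siRNAs and for HA against FLAG, 0 to 3 for FLAG and for Life siRNA in tagged clones and 0 to 2 for FLAG siRNA in untagged clones (4494 genes for leptomycin B and 3959 for HA siRNA). With DESeq2 it was 1 to 2 for leptomycin B, 0 to 1 for the cyclin D1 siRNAs and for FLAG siRNA in both kinds of clone, and 0 to 2 for Life siRNA. No filter gave 0 for leptomycin B, and the stricter filter, which drops Trp63, gave 1 for clone 14 against clone 12. Without the libraries rich in Rn45s it was 0 for leptomycin B, 1 for Nature siRNA (Mdm4), 1 for HA against FLAG, 1 for clone 14 against clone 12 and 4 for clone 25 against clone 18. With 1 library left out, leptomycin B gave 0 in each case, the tag siRNAs 1 in tagged clones and 0 to 1 in untagged clones, the cyclin D1 siRNAs 0 to 1, targeting siRNAs 0 to 2, Nature siRNA 0 to 1, HA siRNA 1 in both kinds of clone, HA against FLAG 2, and each clone pair 1 to 3. The causes were not tested. Unscaled totals moved clone 25 to 189.9 CPM for Trp53, 99.75 CPM for Mdm2 and 981.8 CPM for Hras, and the longest transcript as length put Hras at 110 times Mdm4 per kb, against 174 with union exons. Depth limits Trp63 and Trp73.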
